A study of Mus musculus with 4 samples.

Results

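Cd24a encodes the mouse CD24 antigen, 1 of 3624 genes in a single-cell RNA table of blood progenitors from E14.5 fetal liver of C57Bl/6J mice. It was chosen by name, with its pattern across lineages and genotypes in these data already known, so its levels are given as a description and none of its p-values is independent evidence. Libraries A and B came from Gata2-77-/- embryos, homozygous for a deletion of the -77 enhancer, a distal element that acts on Gata2, and libraries F and I from wild-type embryos. The cells of all 4 were sorted as Lin-Sca-cKit+Cd34+, a gate that keeps cells with the receptor Kit and the antigen CD34 and without Sca1 or the markers of mature lineages. Gata2 is a zinc finger transcription factor of stem and progenitor cells. The letters of the libraries are not tied to sample numbers in the labels. The design names separate embryos, but if 2 libraries shared a source, the p-values would measure only the spread between these libraries.

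CD24 is a small, heavily O-glycosylated protein held on the outer membrane by a glycosylphosphatidylinositol (GPI) anchor. Its sugars bind P-selectin and, on myeloid and other immune cells, sialic acid receptors such as Siglec-G in the mouse. In mouse blood formation it is known as the heat-stable antigen, a surface marker of maturing red cell precursors, early B cells and granulocytes, and it is used with other antigens to sort erythroid stages.

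In the GRCm38 (mm10) build, Cd24a (ENSMUSG00000047139.9) spans 43578284 to 43584265 of chromosome 10, on the + strand. The transcript Cd24a-201 has its start codon in a first exon from 43579169 to 43579322, and its last exon, from 43582604 to 43584265, holds a 3' UTR of 1503 bases. Of the other annotated genes, 2 carry stretches nearly identical to it, Gm15352 (91.9% over 258 bases) and Gm6212 (95.2% over 228 bases). Neither was analysed here, and whether they share reads with Cd24a was not tested.

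The table holds 2235 cells of library A and 2745 of B, against 3042 of F and 1938 of I. UMIs (unique molecular identifiers) stand for captured transcripts. Medians per cell were 7492 and 7087 UMIs in the enhancer-deleted libraries A and B, against 12826.5 and 17437.5 in the wild-type libraries F and I. Gata2 reached 7.48 and 6.73 CPM (CPM divides a gene's UMIs by its library's sum in the table) in A and B, against 26.3 and 23.2 in F and I. It was 3.62-fold lower in the enhancer-deleted libraries (log2 fold change -1.86, SE 0.19, edgeR adjusted p = 0.00792), and the deleted sequence lies outside this transcript. Xist, the RNA of the inactive X chromosome, was at 0 and 410 CPM in A and B, against 0.0249 and 492 in F and I, so each genotype held 1 library with and 1 without it. No cell of 1 library had the same counts as a cell of another. Of the sort genes, Kit had a UMI in 14.99% to 17.7% of cells thinned to equal depth and Cd34 in 47.5% to 73.3%, and Sca1 (Ly6a) was not analysed here.

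Cd24a gave 11454 UMIs in all, in 4121 of 9960 cells (41.4%), and ranked 1434 among the genes by UMIs. Most of these cells held few of its UMIs, and a small number held very many. Of the 4980 enhancer-deleted cells, 1054 had 1 UMI, 1009 had 2 to 4, 132 had 5 to 14, and 5 had 15 or more. Of the 4980 wild-type cells, 817 had 1 UMI, 830 had 2 to 4, 213 had 5 to 14, and 61 had 15 or more. Cells with 15 or more numbered 2 in A and 3 in B, against 32 in F and 29 in I, and the highest count was 89 UMIs, in library A. Of these 66 cells, 64 belonged to a single cluster, the erythroid-like one.

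Cells were clustered without Cd24a and named from marker genes, which gave 11 states. Cd24a was highest in the erythroid-like cells, led by Trim10, Cldn13 and the band 3 anion exchanger Slc4a1. It stood there at 3147 CPM in A and 5721 in B (3 cells each), against 2598 in F (51 cells) and 3186 in I (36 cells). None of these 93 cells lacked a Cd24a UMI, and their median was 28 UMIs. The next level was more than a factor of 10 lower in each library. HSPC-like cells, marked by the stem and multipotent genes Hlf, Meis1 and Hoxa9, stood at 197 and 236 CPM in A and B, against 154 and 131 in F and I. At the bottom, monocyte-like cells stood at 15.5 and 21.5 CPM in A and B, against 9.58 and 7.17 in F and I. Their 3 clusters shared the markers Irf8, Fcgr1, Klf4 and Lgals3. Csf1r and Trem2 marked only 2 of them, and the third, led by C1galt1c1 and Nrg1 with 722 cells, also had the neutrophil genes Elane, Hp and Ctsg among its markers. All 2003 monocyte-like cells together held 292 Cd24a UMIs, while the 93 erythroid-like cells held 2837.

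The other states lay between HSPC-like and monocyte-like cells. A cluster led by Bcl2, an inhibitor of apoptosis, and the cell cycle inhibitor Cdkn1a had 124 and 130 CPM in A and B, against 66.8 and 71.1 in F and I. A cluster led by Ccne1 (cyclin E1) and the chaperonin subunit gene Cct8 had 107 and 116 CPM in A and B, against 73.3 and 39.0 in F and I. In both clusters the enhancer-deleted libraries lay above the wild-type ones. A cluster led by F13a1, the coagulation factor XIII A chain of monocytes and macrophages, and Mogs had 55.8 and 85.9 CPM in A and B, against 24.5 and 22.3 in F and I. A cluster led by the mitosis genes Kpna2 and Aurka had 48.1 and 75.2 CPM in A and B, against 27.6 and 32.6 in F and I. A cluster of low total UMIs led by Rpgrip1 and Slc39a1 had 66.8 and 77.1 CPM in A and B, against 21.6 and 16.7 in F and I. It held 185 and 145 cells in A and B, against 68 and 13 in F and I. The level in I came from only 2 Cd24a UMIs, with an exact 95% Poisson interval of 2.02 to 60.1 CPM. In libraries F and I these 3 clusters could not be ordered, since their counting intervals overlapped.

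States that were nearly empty after the deletion were read mainly in the wild type. Neutrophil-like cells had 36.5 and 46.5 CPM in A and B (45 and 22 cells), against 75.04 and 40.9 in F and I (879 and 345 cells), and the genotypes overlapped. A cluster led by the mast cell carboxypeptidase gene Cpa3 and by Perp had 87.1 and 53.0 CPM in A and B (30 and 21 cells), against 41.2 and 28.9 in F and I (300 and 169 cells). A cluster led by Gm15915 and Samd14, with the erythroid regulators Gata1 and Klf1 among its leading genes, had 34.1 and 43.6 CPM in F and I (255 and 135 cells). Libraries A and B held 4 and 3 such cells, with 4 and 0 Cd24a UMIs. For the 0 of 9960 UMIs in B the exact 95% Poisson interval reaches 370 CPM. This cluster had 7 of 17 erythroid, 4 of 5 megakaryocyte and 4 of 6 basophil/mast markers and was left unnamed. Its alpha and beta globins summed to 123 and 120.4 CPM in F and I, against 169 and 183 in HSPC-like cells and 168538 and 344978 in erythroid-like cells of the same libraries. In F and I its Cd24a level was far below that of erythroid-like cells and below that of HSPC-like cells.

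**Figure D1:**
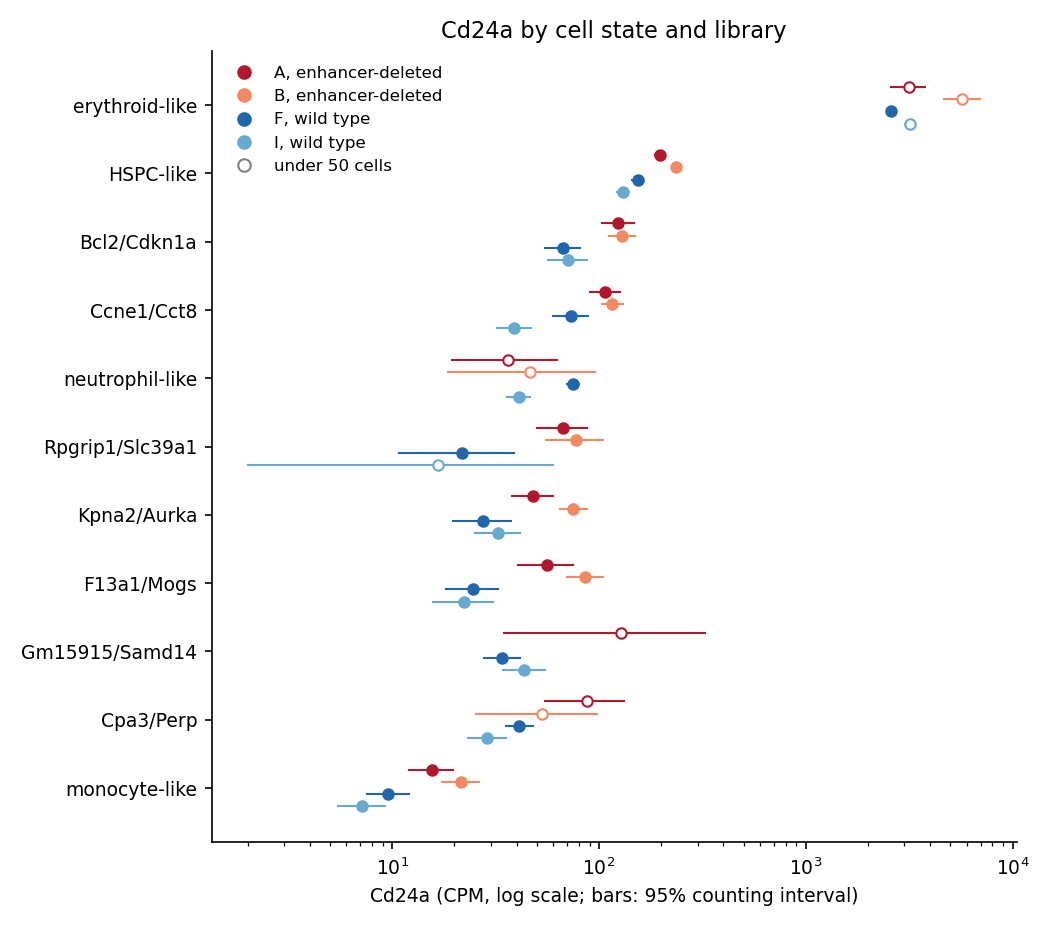
Cd24a level in CPM (log scale) in each of the 11 cell states, with 1 point per library and bars for the exact 95% Poisson interval, which covers counting error only; open points rest on under 50 cells, and library B is not drawn for Gm15915/Samd14, where it had 0 UMIs. Erythroid-like cells stand apart from all others at 2598 to 5721 CPM, and of the points drawn those of monocyte-like cells are lowest in every library.

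Gates on marker transcripts, applied to cells thinned to 4346 UMIs, split the erythroid and granulocyte cells further. Globin-rich cells (at least 20 UMIs of the alpha and beta globins) held 2340 CPM in A (5 cells) and 5721 in B (3 cells), against 3953 in F (31 cells) and 3951 in I (29 cells). Early erythroid cells, with Gata1 or Klf1 UMIs but below the globin gate, held 227 and 133 CPM in F and I (72 and 39 cells). A and B had 1 such cell each, with 0 Cd24a UMIs. The early erythroid level rested on few cells, since 45 of the 72 in F and 25 of the 39 in I had 0 Cd24a UMIs. The 16 and 5 of them that belonged to the erythroid-like cluster held 173 of 187 UMIs in F and 46 of 70 in I, at 887 and 612 CPM. The other 56 and 34 held 22.3 and 53.3 CPM. Within the wild type both libraries had higher levels in globin-rich cells than in either of these. Cells of the secondary granule gate (Camp, Ngp, Ltf and Lcn2) held 168 and 116 CPM in F and I (136 and 42 cells), with 1 such cell in each of A and B. The Cebpe gate took cells with at least 2 UMIs of Cebpe, a regulator of granule maturation, and fewer than 2 of these granule transcripts. Its cells held 32.6 and 66.6 CPM in A and B, against 55.8 and 24.7 in F and I. In F and I the secondary granule level lay above the level of the Cebpe gate.

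Between the 2 neutrophil-like clusters the same order held in F and I. In A and B they could not be ordered, since cells were few and the counting intervals overlapped. The cluster led by the antimicrobial peptide gene Camp had 121 and 81.4 CPM in F and I (367 and 131 cells). In A and B it had 30.6 and 23.6 CPM, from 3 and 1 Cd24a UMIs in 17 and 7 cells. The cluster led by Hsd11b1 and Gstm1, with the primary granule gene Elane, had 38.7 and 55.6 CPM in A and B (28 and 15 cells), against 52.1 and 24.2 in F and I (512 and 214 cells). Mast cells, gated on Cpa3 and Ms4a2, had 56.3 and 42.0 CPM in F and I, and 1 such cell was found in B and none in A. Basophil cells, gated on Mcpt8 without Cpa3, had 128 and 105 CPM in A and B (10 and 18 cells), against 176 and 32.1 in F and I (9 and 5 cells), with overlapping genotypes. Cells gated on stem genes had 229 and 247 CPM in A and B, against 148 and 138 in F and I, and monocyte cells 26.4 and 32.1 CPM in A and B, against 18.6 and 8.24 in F and I.

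**Figure D2:**
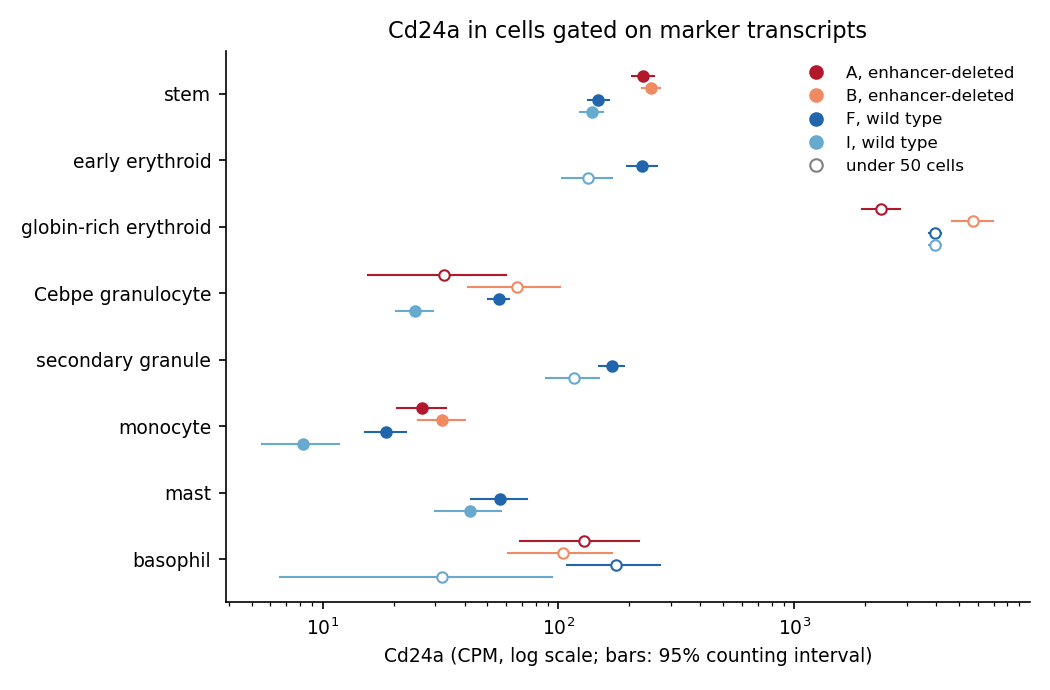
Cd24a level in CPM (log scale) in cells gated on marker transcripts after thinning, with 1 point per library and bars for the exact 95% Poisson interval; open points rest on under 50 cells, and libraries with under 3 cells in a gate are not drawn. In the wild-type libraries the level is higher in the globin-rich than in the early erythroid gate, and higher in the secondary granule than in the Cebpe gate.

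Cd24a UMIs were also set against the globin UMIs of the same cells. Erythroid-like cells had 16.2 and 14.9 Cd24a UMIs per 1000 globin UMIs in A and B, against 15.4 and 9.23 in F and I. HSPC-like cells had 941 and 1003 in A and B, against 909 and 711 in F and I. Neutrophil-like cells had 1857 and 700 in A and B, against 856 and 39.8 in F and I, and monocyte-like cells 1082 and 544 in A and B, against 151 and 99.2 in F and I. The ratio was higher in HSPC-like than in erythroid-like cells of every library. Among the states given here, it came nearest to the erythroid one in the neutrophil-like cells of library I. The part of free RNA in droplets was not tested.

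Over all cells Cd24a stood at 114 and 138 CPM in the enhancer-deleted libraries A and B, against 99.9 and 81.8 in the wild-type libraries F and I. Means were 126 ± 16.5 CPM in A and B and 90.8 ± 12.8 CPM in F and I (SD, n = 2 each), and the libraries of the 2 genotypes did not overlap. The log2 fold change was 0.42 (SE 0.13), and the edgeR adjusted p = 0.120 missed the threshold of 0.05, which 321 of 3622 genes (8.86%) passed. With library totals in place of TMM scaling the adjusted p was 0.0373, and with the DESeq2 Wald test 0.00935. Without 1 library the log2 fold change ran from 0.24 to 0.60. After thinning, where every cell weighs the same, the log2 fold change was 0.00 (edgeR adjusted p = 0.992), with 0.501 and 0.615 Cd24a UMIs per cell in A and B, against 0.527 and 0.538 in F and I.

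The 2 genotypes drew their Cd24a from different cells. HSPC-like cells held 65.7% and 64.2% of the Cd24a UMIs of A and B, against 26.5% and 30.8% in F and I. Erythroid-like cells held 5.92% and 3.61% in A and B, against 36.6% and 41.7% in F and I, where they were 1.68% and 1.86% of the cells. Neutrophil-like cells held 0.675% and 0.255% in A and B, against 20.5% and 8.19% in F and I. HSPC-like cells were 40.1% and 41.5% of the cells of A and B, against 19.9% and 23.3% in F and I.

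**Figure D3:**
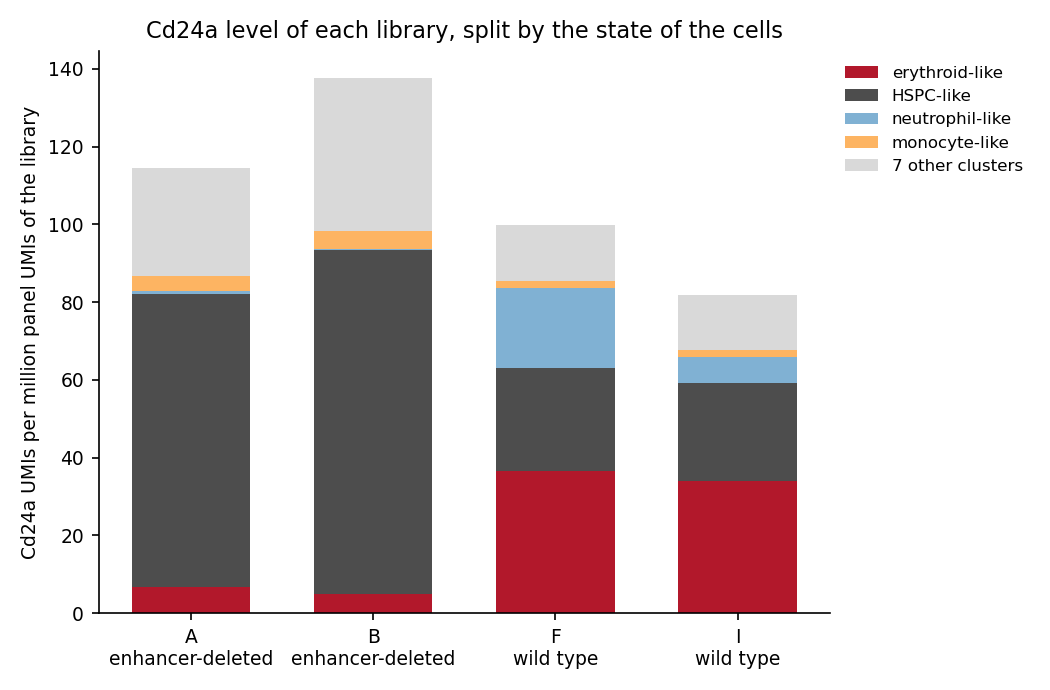
Cd24a UMIs of each library in CPM, split by the state of the cells that held them, with the enhancer-deleted libraries on the left and 1 stacked bar per library. Erythroid-like cells gave 6.77 and 4.97 of the total in A and B, against 36.6 and 34.1 in F and I, and HSPC-like cells gave 75.2 and 88.4 in A and B, against 26.5 and 25.2 in F and I.

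Without the erythroid-like cells Cd24a stood at 108 and 133 CPM in A and B, against 64.2 and 48.2 in F and I. Means were 120.4 ± 17.7 CPM in A and B and 56.2 ± 11.3 CPM in F and I (SD, n = 2 each), the log2 fold change was 1.04 (SE 0.16) and the edgeR adjusted p was 0.0224, where 282 of 3615 genes (7.80%) passed. This cell set was chosen after the distribution of UMIs over states had been seen. At a fixed mix of the 6 states with at least 50 cells in every library, the level was 111 and 135 CPM in A and B, against 81.1 and 68.1 in F and I. The difference was 48.4 CPM (exact two-sided permutation p = 0.333, the smallest that 2 libraries against 2 allow).

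Within each of these 6 states both enhancer-deleted libraries lay above both wild-type ones. The states share the same 4 libraries, so these are not 6 separate agreements. How often other genes separate in this way was not counted. In HSPC-like cells the means were 217 ± 27.6 CPM in A and B and 142 ± 16.5 CPM in F and I (SD, n = 2 each). The log2 fold change was 0.57 (SE 0.10), and the edgeR adjusted p = 0.0573 lay just above the threshold, which 38 of 3576 genes (1.06%) passed. The adjusted p was 0.00152 with the DESeq2 Wald test and, with edgeR, 0.0113 with library totals, 0.0684 with no filter and 0.118 after thinning. Without 1 library the log2 fold change ran from 0.45 to 0.70. Of the 3 HSPC-like clusters, the one led by Flt3, a receptor of multipotent and lymphoid-primed progenitors, and Sox4 had 224 and 285 CPM in A and B, against 142 and 121 in F and I. Its log2 fold change was 0.91 (SE 0.13, edgeR adjusted p = 0.00186, with 0.537% of genes passing). It passed as well with library totals (0.96), with the DESeq2 Wald test (0.91) and after thinning (0.89). Without 1 library it ran from 0.80 to 1.04. Median depths were 5469 and 5292 UMIs per cell in A and B, against 9662 and 11455.5 in F and I. The fits of single HSPC-like clusters were added after results had been seen. The cluster led by Ctla2a and Gimap6 had 179 and 222 CPM in A and B, against 154 and 109 in F and I. There the log2 fold change was 0.57 (edgeR adjusted p = 0.160, 0.902% passing), and without 1 library it ran from 0.34 to 0.86. The cluster led by Gm5111 and Mycn had 207 and 219 CPM in A and B, against 163 and 168 in F and I (log2 fold change 0.35, edgeR adjusted p = 0.232, 0.874% passing).

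The difference was also present among HSPC-like cells split by Gata2 and Flt3. Cells with a Gata2 UMI had 237 and 320 CPM in A and B (42 and 44 cells), against 186 and 99.3 in F and I (66 and 42 cells). Cells with Flt3 and without Gata2 had 207 and 228 CPM in A and B, against 166 and 150 in F and I. Cells with neither had 192 and 231 CPM in A and B, against 145 and 130 in F and I. In all 3 groups both enhancer-deleted libraries were above both wild-type ones, which is a description, since a missing UMI does not show that a cell lacks the transcript. The groups share the same libraries, and how often other genes separate there was not counted.

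Of the other 5 states, 2 passed the threshold. In the cluster led by Bcl2 and Cdkn1a the means were 127 ± 4.01 CPM in A and B and 69.0 ± 3.05 CPM in F and I (SD, n = 2 each), with a log2 fold change of 0.84 (SE 0.13, edgeR adjusted p = 0.00309), and 20 of 3505 genes (0.571%) passed there. It missed the threshold without A (adjusted p = 0.0803), without B (0.0997), without I (0.0590), after thinning (0.186) and with the DESeq2 Wald test (0.268). In the cluster led by F13a1 and Mogs the means were 70.8 ± 21.3 CPM in A and B and 23.4 ± 1.61 CPM in F and I (SD, n = 2 each), with a log2 fold change of 1.53 (SE 0.24, edgeR adjusted p = 0.0275), and 6 of 3531 genes (0.170%) passed. Without library B the adjusted p was 0.480, after thinning 0.0787 and without the 5% of cells with the most UMIs 0.0554.

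In the remaining 3 states Cd24a was higher in both enhancer-deleted libraries without passing. In the cluster led by Ccne1 and Cct8 the log2 fold change was 1.09 (SE 0.22, edgeR adjusted p = 0.182, with 0.170% of genes passing). It was 0.67 after thinning (edgeR adjusted p = 0.497) and 0.57 to 1.52 without 1 library. Its thinned shares of cells with a Cd24a UMI overlapped, at 34.8% and 31.9% in A and B, against 32.9% and 18.1% in F and I. In monocyte-like cells the log2 fold change was 1.18 (SE 0.26, edgeR adjusted p = 0.104, 0.869% passing), and the DESeq2 Wald test gave an adjusted p of 0.0124. That class is not made of the same clusters in both genotypes. The cluster led by Nrp1 and Lgals3 held 319 and 244 of its cells in A and B, against 113 and 57 in F and I, while the cluster led by C1galt1c1 and Nrg1 held 129 and 128 in A and B, against 224 and 241 in F and I. Cd24a stood at 15.9 and 15.997 CPM in A and B, against 7.28 and 3.798 in F and I, in the first of these, and at 14.5 and 19.6 in A and B, against 5.51 and 5.44 in F and I, in the second. In the monocyte-like cluster led by Ctss and Fcgr1 the genotypes overlapped, at 15.9 and 27.8 CPM in A and B, against 21.2 and 13.9 in F and I. In the cluster led by Kpna2 and Aurka the log2 fold change of Cd24a was 1.04 (SE 0.22, edgeR adjusted p = 0.328). There 0 of 3528 genes (0%) passed the edgeR test, 254 had an unadjusted p under 0.05, and 3 passed the DESeq2 Wald test.

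**Figure D4:**
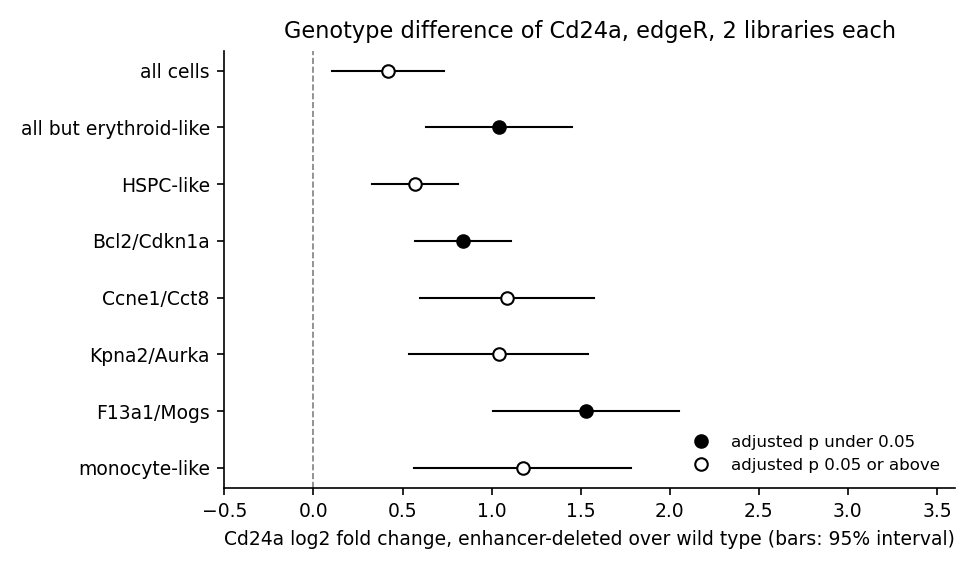
Log2 fold change of Cd24a, enhancer-deleted over wild type, with its 95% interval from edgeR (2 libraries each), over all cells, without erythroid-like cells and within the 6 states with at least 50 cells in every library; filled points passed the threshold on the adjusted p. The estimate is above 0 in every row, at 0.42 over all cells and between 0.57 and 1.53 within states.

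Whether the genotype difference itself differed between states was tested against HSPC-like cells. In the cluster led by F13a1 and Mogs it was larger by 1.00 on the log2 scale (SE 0.25, edgeR adjusted p = 0.0434), where 34 of 3586 genes (0.948%) passed. This call was lost without library A (adjusted p = 0.371), without B (0.681), with library totals (0.0571), with the DESeq2 Wald test (0.0979) and without cells in several marker gates (0.0556). The other 4 states did not pass. The difference was 0.29 for the Bcl2 and Cdkn1a cluster (SE 0.18, adjusted p = 0.862, 0.390% passing) and 0.48 for the Ccne1 and Cct8 cluster (SE 0.17, adjusted p = 0.451, 0.418% passing). It was 0.44 for the Kpna2 and Aurka cluster (SE 0.22, adjusted p = 0.489, 0.446% passing) and 0.59 for monocyte-like cells (SE 0.22, adjusted p = 0.0724, 13.1% passing). Without 1 library the difference ran from 0.11 to 0.75 for the Ccne1 and Cct8 cluster and from 0.49 to 0.69 for monocyte-like cells.

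Depth moved with the genotype. The order of the libraries by Cd24a level over all cells, B, A, F and I, is the reverse of their order by median UMIs per cell. Within libraries, HSPC-like cells with fewer UMIs had the higher Cd24a level. Those below the median depth of the HSPC-like cells of their library had 202 and 255 CPM in A and B, against 185 and 141 in F and I. Those above it had 195 and 227 CPM in A and B, against 138 and 125 in F and I. Among HSPC-like cells of a shared range, 5471 to 11141 UMIs, Cd24a stood at 201 and 232 CPM in A and B, against 185 and 140 in F and I. The libraries still did not overlap there, at a log2 fold change of 0.31 (SE 0.13, edgeR adjusted p = 0.134), where 522 of 3554 genes (14.7%) passed. Median depths in that range were 8010 and 7331 UMIs in A and B, against 9104.5 and 9490 in F and I, and the part of depth in the remaining difference was not tested.

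Markers of other lineages within HSPC-like cells were read beside this result. The 17 measured erythroid markers summed to 307 and 338 CPM in A and B, against 308 and 338 in F and I, with Car1 and Ermap at 0 in every library. The 16 neutrophil markers summed to 2157 and 2287 CPM in A and B, against 2180 and 2095 in F and I, with Ngp at 0 in A, B and I. The 15 monocyte/macrophage markers summed to 500.2 and 471 CPM in A and B, against 382 and 304 in F and I, with none at 0 in any library. The 6 basophil/mast markers summed to 557 and 538 CPM in A and B, against 606 and 599 in F and I, and the 2 B lymphoid markers to 60.7 and 57.4 in A and B, against 63.2 and 69.1 in F and I. Of the lists with few measured genes, the genotypes also did not overlap for the 2 eosinophil markers, at 0 and 0.134 CPM in A and B, against 4.48 and 0.763 in F and I. The same held for the single genes of the T/NK/ILC list (123 and 115 in A and B, against 96.9 and 76.9 in F and I), the hepatoblast list (66.5 and 63.4 in A and B, against 98.96 and 75.3 in F and I) and the mature liver macrophage list (2.02 and 2.55 in A and B, against 3.33 and 2.75 in F and I). The monocyte/macrophage and T/NK/ILC sums were higher, and the other sums without overlap lower, in the enhancer-deleted libraries. The genotypes overlapped for the HSPC/multipotent list, at 971 and 1023 CPM in A and B, against 1054 and 1009 in F and I. They also overlapped for the erythroid, megakaryocyte, neutrophil, dendritic and endothelial lists. How often single genes do not overlap was not counted, so these separations are a description and not a result about the lists. The part of these sums in the Cd24a level was not tested.

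The share of cells with a Cd24a UMI was compared after thinning, which kept 8965 cells. It was 30.5% and 35.4% in A and B, against 22.9% and 19.2% in F and I. The means were 33.0% ± 3.47 in A and B and 21.04% ± 2.57 in F and I (SD, n = 2 each), a difference of 11.95 percentage points (exact two-sided permutation p = 0.333, the smallest possible). Cells with 2 or more UMIs made up 13.2% ± 2.49 in A and B and 7.16% ± 1.16 in F and I, and without thinning cells with a UMI made up 43.8% ± 4.90 in A and B and 38.4% ± 1.35 in F and I. Thinning left out 855 enhancer-deleted and 140 wild-type cells. In HSPC-like cells the thinned share was 51.5% and 57.7% in A and B, against 42.7% and 41.2% in F and I. Monocyte-like cells, the state with the lowest share among those of 50 cells or more, gave 6.78% and 7.97% in A and B, against 4.68% and 1.29% in F and I, at median depths of 7358 and 7507.5 UMIs in A and B, against 17072 and 22325 in F and I. No state was taken to lack Cd24a.

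Genes detected in the same cells were ranked by their Spearman correlation with Cd24a across the thinned cells of each library, averaged over the 4 libraries. The cells of a library share their depth after thinning and their library, and with sparse counts every value was small. Among 3481 genes the highest was Ctla2a, which encodes an inhibitor of cathepsin L, with correlations of 0.35 and 0.31 in A and B, against 0.12 and 0.17 in F and I. Also among the first 10 were Marcksl1, an actin-binding protein gene (mean 0.21), Car2 (carbonic anhydrase 2, 0.20) and the beta globin Hbb-bt (0.19). Gimap1 (0.19) and Gimap6 (0.18), which encode GTPases of immune cells, Stmn1, the microtubule regulator stathmin (0.18), Ptprcap (0.18) and the receptor gene Cd27 (0.17) were among them too. At the other end stood Plac8 (-0.31), the actin-sequestering thymosin gene Tmsb4x (-0.30), Prtn3, a serine protease of primary granules (-0.28), the signalling adaptor gene Tyrobp (-0.25) and Ctsz, cathepsin Z (-0.25). The median of all genes was -0.01. Each gene named here kept its sign in all 4 libraries.

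**Figure D5:**
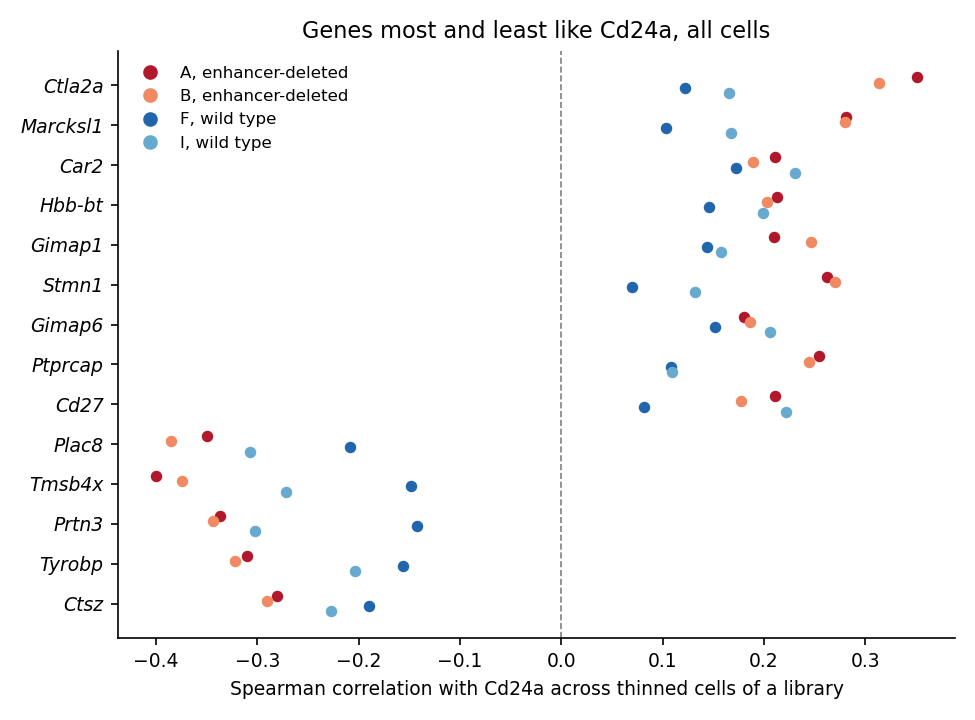
Spearman correlation with Cd24a across thinned cells, 1 point per library, for 9 of the 10 genes with the highest mean over the 4 libraries and the 5 with the lowest. The points of each gene lie on 1 side of 0, and Ctla2a and Plac8 are the outermost by their means of 0.24 and -0.31.

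Within HSPC-like cells the same ranking was led by Ctla2a (mean 0.14), Ppdpf (0.10), prothymosin alpha Ptma (0.10), Marcksl1 (0.10) and Gimap1 (0.09). Its lower end held Prtn3 (-0.19), Plac8 (-0.14), Tmsb4x (-0.14), the monocyte and dendritic cell regulator Irf8 (-0.12) and the chemokine gene Ccl9 (-0.11). Stmn1 led in the Bcl2 and Cdkn1a cluster (mean 0.22) and in the Ccne1 and Cct8 cluster (0.20). The leading genes were Impdh1 in the Kpna2 and Aurka cluster (mean 0.23), Il21r in the F13a1 and Mogs cluster (0.15) and Mrpl36 in monocyte-like cells (0.09), where the means are over cells that mostly had no Cd24a UMI.

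Over sums of a state in a library, a different set came first. With the 34 sums of at least 50 cells, Pearson correlations of log2(CPM + 1) with Cd24a were highest for Hbb-bt (0.78), Bpgm, an enzyme of red cell glycolysis (0.76), Pole3 (0.74), Mgst3 (0.73) and the peroxiredoxin gene Prdx2 (0.72). Only 1 of these sums was erythroid-like. Without it, over 33 sums, the highest were Cd27 (0.78), the mitochondrial deacetylase gene Sirt3 (0.78), Paip2 (0.78), Mfng, which modifies Notch receptors (0.77) and Ccnd2, cyclin D2 (0.76). Lmo2, a cofactor of stem cell and erythroid transcription, was among the first 10 in both rankings, at 0.70 and 0.74. Mfng had -0.05 with the erythroid-like sum and 0.77 without it.

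Genes tied to the CD24 protein were compared between genotypes over all cells, where the median of all genes was 0.00 on the log2 scale. Of all genes, in either direction, 8.86% passed the edgeR test, 24.5% had an unadjusted p under 0.05 and 20.3% passed the DESeq2 Wald test. Of 6 measured ligands and signalling partners, 0 were higher and 1 was lower, the integrin Itga4, with 63.0 ± 0.758 CPM in A and B and 74.4 ± 1.09 CPM in F and I (SD, n = 2 each, log2 fold change -0.29, edgeR adjusted p = 0.0448). The median of the 6 was 0.01. The Src family kinase gene Lyn, which signals downstream of CD24, stood at 34.9 ± 1.22 CPM in A and B and 31.5 ± 0.217 in F and I. Hmgb1, a nuclear protein that CD24 binds outside the cell, stood at 1490.4 ± 36.7 CPM in A and B and 1410.4 ± 50.9 in F and I. Siglecg itself was not analysed here.

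The anchor and the sugars of CD24 need their own enzymes. Of 8 measured genes of GPI-anchor synthesis, 0 passed the edgeR test, 4 had an unadjusted p under 0.05 and 1 passed the DESeq2 Wald test, with a median log2 fold change of -0.16. Pigx, a subunit of the first mannosyltransferase, stood at 127 ± 12.7 CPM in A and B and 104 ± 8.10 in F and I (SD, n = 2 each). Dpm3 of dolichol-phosphate mannose synthase stood at 78.9 ± 17.9 CPM in A and B and 104 ± 1.30 in F and I. Of 5 measured genes of O-glycosylation, 0 passed the edgeR test, 2 had an unadjusted p under 0.05 and 2 passed the DESeq2 Wald test, with a median of -0.13. The sialyltransferase gene St6galnac4 stood at 73.3 ± 9.39 CPM in A and B and 57.8 ± 1.59 in F and I. Of 5 other GPI-anchored proteins, Cd48, a ligand of CD2, rose to 191 ± 16.7 CPM in A and B, against 131 ± 3.14 in F and I (log2 fold change 0.49, edgeR adjusted p = 0.0135). Ly6c2, which is also a monocyte marker, stood at 59.3 ± 27.3 CPM in A and B and 189 ± 54.8 in F and I (log2 fold change -1.72, edgeR adjusted p = 0.0544). By edgeR 1 gene of that list rose and 0 fell, 2 had an unadjusted p under 0.05, and by the DESeq2 Wald test Cd48 was higher and Ly6c2 lower. The median was 0.19.

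Of 21 measured surface markers of fetal progenitors, 4 rose and 6 fell over all cells, beside 8.86% of all genes in either direction, with a median of 0.02. Cd34 stood at 319 ± 18.7 CPM in A and B and 198 ± 17.0 in F and I, and Cd93 at 62.1 ± 2.18 in A and B and 41.0 ± 0.618 in F and I. Cd48 and Cd27 also rose. Among those that fell were Cd63, the Fc receptors Fcgr3 and Fcgr2b, the transferrin receptor Tfrc and Itga4. Fcgr3 stood at 74.0 ± 0.107 CPM in A and B and 202 ± 19.6 in F and I.

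Within HSPC-like cells, where Cd24a had a log2 fold change of 0.57, 0 of these 21 markers rose and 2 fell, beside 1.06% of all genes, with a median of -0.05. Of the 2, Itga4 stood at 76.8 ± 0.769 CPM in A and B and 103.8 ± 6.25 in F and I (SD, n = 2 each, log2 fold change -0.47, edgeR adjusted p = 0.0417). Cd34 stood there at 375 ± 13.7 CPM in A and B and 342 ± 24.9 in F and I. Cd27 had 111 ± 5.12 in A and B and 125 ± 7.23 in F and I. Cd63, which fell over all cells, was here the higher in A and B, at 132 ± 4.51 CPM against 98.4 ± 6.67 in F and I. None of them passed the edgeR test.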

How the data were processed

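The deposited table holds counts, which the authors left as whole-number UMIs of 3624 genes in 9960 cells without normalization. Besides it, the authors deposited symbols for its rows and, per cell, the genotype with a library letter, which carry no measured unit. Per the submitters' processing notes, Cell Ranger 2.0.2, Seurat 2.3.4 and mm10 were used. How genes and cells were chosen is not given in the sources used here. Cd24a, the lists and the rules were chosen with earlier results of these data known.

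UMIs were summed per library, and over all cells each library held 16837863 to 40117680 UMIs. Genes passed filterByExpr, and TMM factors and edgeR 4.0.16 gave the fit over all genes (quasi-likelihood, two-sided, Benjamini-Hochberg, threshold 0.05, R 4.3.3). Positive log2 fold changes are higher in enhancer-deleted libraries, and SE is that of the fitted value. Between states, the library was a factor. CPM intervals are exact Poisson intervals and cover counting error only.

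Cells were scaled to 10000 UMIs and clustered without Cd24a (1000 variable genes, 30 components, 15 neighbours, Leiden resolution 1.0, scanpy 1.11.5). Names needed at least 3 markers of a list, each in 10% of the cells and 2-fold over the rest, and the list had to have the most such markers, the highest share of its own genes and the most of the 10 leading genes. States with under 50 cells in a library were not fitted. No doublet caller was run, and alternatives left out the 5% of cells with the most UMIs and cells in several gates. Thinning took each cell to 4346 UMIs, the 10th percentile. Likeness used genes with a UMI in at least 5% of thinned cells of every library. Genes were named by these rankings (10 highest and 5 lowest over all cells, 5 in each state, 10 over sums), as leaders of a state, or as up to 5 members of each list by p. Some genes that met these rules are not reported here. Leaders of single clusters, the markers that name a state or gate, and list members that passed were named besides. The fits were tested on simulated data. The simulation gave every gene the same spread, so it does not show how well the p-values given here hold. Other alternatives were DESeq2 1.42.0, size factors, library totals, no filter, an Xist term, equal cells, resolution 0.5, marker gates and leaving out each library. Annotation is from GENCODE M21.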

Additional observations from a re-analysis of the deposited data

Results flagged for a closer look

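The genotype difference of Cd24a was larger in the cluster led by F13a1 and Mogs than in HSPC-like cells, by 1.00 on the log2 scale (SE 0.25, edgeR adjusted p = 0.0434). Both enhancer-deleted libraries were higher than both wild-type ones in each of the 2 states, and what stood out was the difference between the 2 effects. Median depth in that cluster was 6524 and 5808 UMIs per cell in A and B, against 11319 and 13481 in F and I, and its part in the difference was not tested.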

How the results depend on the processing

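Over 15 fitted results and 150 alternatives, all from the same 4 libraries, every estimate stayed above 0. Over all cells after thinning it was only 0.00224, with a 95% interval of -0.197 to 0.202. Of the alternatives, 121 kept the side of the threshold, which for results that had missed it means missing it again. The 2 results with an exact permutation test could not pass at this number of libraries, and their 18 alternatives gave differences above 0. The log2 fold change over all cells passed with library totals (0.47), the DESeq2 Wald test (0.41) and without erythroid-like cells (1.04, chosen after seeing the data), and ran from 0.24 to 0.60 without 1 library. In HSPC-like cells it passed with library totals (0.61), the DESeq2 Wald test (0.57) and without the 5% of cells with the most UMIs (0.57). It also passed at resolution 0.5 (0.79) and in the marker gate (0.69), with 0.45 to 0.70 without 1 library. The HSPC-like state of resolution 0.5 was not the same set of cells. It took in a cluster of 2073 cells with Csf1r among its leading genes and Cx3cr1 and Ccr2 among its markers. In HSPC-like cells the log2 fold change did not pass thinned (0.54), with no filter (0.57), with DESeq2 size factors (0.57), without cells in several gates (0.57) or in a shared UMI range (0.31). The Bcl2 and Cdkn1a cluster did not pass with the DESeq2 Wald test (0.84) or thinned (0.87), with 0.80 to 0.87 without 1 library. The F13a1 and Mogs cluster did not pass without the 5% of cells with the most UMIs (1.52) or thinned (1.12), with 1.20 to 1.75 without 1 library. Without 1 library the Ccne1 and Cct8 cluster ran from 0.57 to 1.52, and monocyte-like cells, which passed the DESeq2 Wald test (1.18), from 0.95 to 1.43. The difference from HSPC-like cells in the F13a1 and Mogs cluster did not pass with library totals (1.02), the DESeq2 Wald test (0.97) or without cells in several gates (0.97), with 0.76 to 1.12 without 1 library. Without 1 library it ran from 0.11 to 0.75 in the Ccne1 and Cct8 cluster and from 0.49 to 0.69 in monocyte-like cells. The causes were not tested. A lone library was assumed to vary like the others. No paired analysis was possible because the library letters carry no sample number. Leaving out the 5% of cells with the most UMIs was not run for the differences between states or the Kpna2 and Aurka cluster, where a library fell under 50 cells, and resolution 0.5 and gates gave only HSPC-like and monocyte-like states. The DESeq2 Wald test gave no adjusted p for the Kpna2 and Aurka difference. The number of cells, 3 in each library, limits the enhancer-deleted erythroid-like level.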
